A study of Mus musculus with 32 samples.

Results

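The insulin-like growth factor (IGF) axis was followed in cultured mouse cardiac fibroblasts through 10 genes: the ligand gene Igf1, the receptor genes Igf1r and Igf2r, the binding protein genes Igfbp2, Igfbp3, Igfbp4, Igfbp5, Igfbp6 and Igfbp7, and Pappa, which encodes a protease of binding proteins. They were chosen by gene symbol, matched to the Ensembl IDs of the deposited count table through the GENCODE annotation of GRCm38. All 10 were found among the 55414 gene IDs of the table, and all 10 passed the filter on low counts that 16760 genes passed.

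IGF-1 binds the receptor tyrosine kinase encoded by Igf1r, which drives growth and survival signaling through the insulin receptor substrates, PI3K and AKT. IGF2R, also the cation-independent mannose 6-phosphate receptor, has no kinase and carries IGF-2 and lysosomal enzymes into the cell for sorting or degradation. The binding proteins hold IGFs outside the cell and can block or prolong their action, and pregnancy-associated plasma protein A (PAPP-A, the product of Pappa) releases IGF by cutting mainly IGFBP-4, and also IGFBP-5 and IGFBP-2. In the heart, fibroblasts are a known source of IGF-1 and of several of these binding proteins.

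The cells came from C57BL/6J mice given as Pkm2fl/fl, with a floxed exon of the pyruvate kinase gene Pkm, and were used at passage 1. They had been transduced with LacZ as the control vector or with the recombinase iCre, and then kept for 24 h without added factor (SS, which the labels do not spell out) or with a stimulus. The stimuli were bFGF (basic fibroblast growth factor) at 20 ng/ml, the cytokine IL-1b (interleukin 1 beta) at 15 ng/ml and TGFb, the fibrogenic factor, at 10 ng/ml. All cells, SS included, had been expanded in medium with serum, an insulin-transferrin-selenium supplement and bFGF at 20 ng/ml, and the stimuli were given without serum. The 2 vectors and 4 conditions made 8 groups of 4 libraries, numbered 1 to 4 in every group. Both vectors stand in the same floxed background, so a group with iCre and no floxed allele was not analysed here, and the labels do not say whether the numbers are separate animals, cultures or runs; the p-values measure the spread between these libraries.

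Total counts ran from 20736203 to 34995038 per library. Groups were taken from the sample titles. The treatment tag goes against the title in 16 libraries, all of them LacZ, and the protocols describe a TNFa stimulus and mice that are TAK1fl/fl, so the doses rest on a text that partly describes other cells. Pkm was lower with iCre in 16 of 16 pairs of 1 condition and number (ratio 0.577 to 0.865, median 0.710), and counts per gene cannot tell its PKM1 and PKM2 products apart. The 12 fibroblast markers were all detected, at a summed 21815 to 67441 CPM (counts scaled to the library total). Sums were 39.4 to 1069 CPM for 14 leukocyte markers and 137 to 1167 CPM for 8 mural markers. For 10 endothelial markers the sum was at most 38.9 CPM, and for 8 cardiomyocyte markers it was 4.12 to 128 CPM. Of the cardiomyocyte genes, Myh6, Actc1 and Nppa had a median of 0, while Tnnt2 had a group mean of 78.1 CPM in LacZ SS. The libraries of number 4 stood apart. Their median fibroblast marker sum was 32747 CPM, against 45625 to 53641 CPM in the other numbers, and their median leukocyte marker sum was 72.8 CPM, against 133 (number 2), 336 (number 1) and 658 CPM (number 3). Number 4 is left out in 1 of the alternatives.

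Transcript levels differed widely across the axis. Library totals are adjusted by TMM factors, and levels of different genes are compared only as CPM per kb of exon length. Igfbp7, whose product binds IGFs weakly and is abundant in mesenchymal cells, led with a median of 1174 CPM per kb over 32 libraries (309 to 1569). Igf2r (65.4, from 33.9 to 135) and Igfbp6 (51.4, from 19.6 to 187), whose product prefers IGF-2, followed, and their ranges overlapped. Then came Igfbp4 (18.5, from 3.23 to 309), Igf1r (11.8, from 7.76 to 21.2), Igfbp3 (9.49, from 2.17 to 31.8), Pappa (7.53, from 3.87 to 21.1), Igfbp5 (6.25, from 1.41 to 122), Igf1 (4.96, lowest 1.45) and Igfbp2 (2.21, from 0.156 to 39.7). Each range in that sequence overlapped the next, except that Igfbp7 lay above every Igf2r value.

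**Figure D1:**
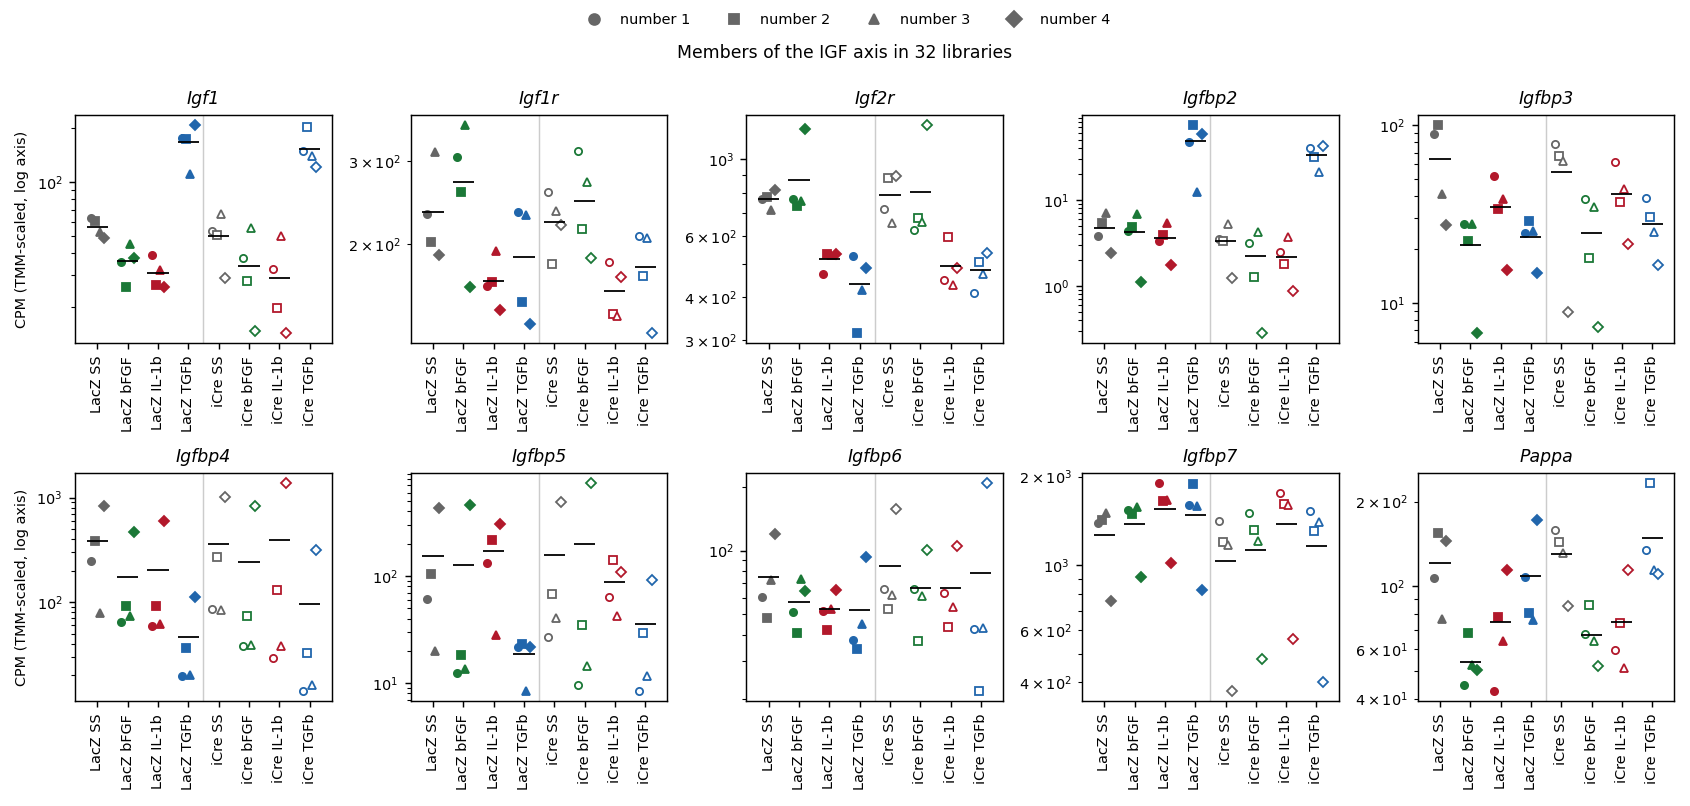
CPM (log axis) of the 10 members in each of 32 libraries, by group; filled symbols are LacZ, open symbols iCre, the symbol shape gives the replicate number and the bar the group mean. Igf1 and Igfbp2 stand above every other group in both TGFb groups, and the diamonds of number 4 lie above the rest for Igfbp4 and below it for Igfbp7.

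TGFb moved members of the axis in opposite directions: in LacZ cells Igf1 and Igfbp2 rose and Igf2r and Igfbp3 fell. That makes 4 of 10 members called, where 46.3% of all tested genes were called, 23.4% higher and 22.9% lower. In iCre cells Igf1 and Igfbp2 rose and Igf2r fell, 3 of 10 against 38.3% of all genes (20.2% higher, 18.1% lower). These shares are near the background, so the count itself is no result about the axis. With the replicate number as a block in the model (the blocked fit), 7 of 10 were called in LacZ (2 rose, 5 fell) against 58.4% of all genes (28.1% higher, 30.3% lower), and 6 of 10 in iCre (2 rose, 4 fell) against 51.6% (25.1% higher, 26.5% lower). The median log2 change of the 10 members was -0.42 in LacZ and -0.21 in iCre, against -0.06 and -0.05 over all genes tested. Scaling by total counts alone moved that median of all genes to -0.26 in LacZ and -0.27 in iCre, and the split of called genes in LacZ from 3925 higher and 3834 lower to 2553 and 5078, and in iCre from 3378 and 3039 to 1918 and 4630. Under that scaling Igf1r was also called lower with TGFb, by -0.51 in LacZ (adjusted p = 0.0308) and -0.55 in iCre (adjusted p = 0.0253).

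Igf1 (ENSMUSG00000020053, chr10:87858265-87937042, + strand) was low in SS and several-fold higher with TGFb. In LacZ cells it stood at 62.6, 60.6, 52.4 and 48.5 CPM in SS and at 176, 173, 111 and 208 CPM with TGFb, in the order of numbers 1 to 4. In iCre cells the values were 53.3, 50.7, 65.9 and 29.0 CPM in SS and 150, 202, 139 and 121 CPM with TGFb. Every TGFb library was above every SS library of its vector, and the change was close to 3-fold in both. Igf1 rose by 1.58 ± 0.34 on the log2 scale in LacZ (SE; 2.98-fold; edgeR, adjusted p = 0.000423). The rise in iCre was 1.62 ± 0.34 (3.08-fold; adjusted p = 0.000448).

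The other stimuli left Igf1 lower than SS in every pair of 1 number. IL-1b gave 38.9, 26.6, 32.4 and 25.7 CPM in LacZ, below all 4 SS values, and 32.5, 19.7, 49.7 and 14.4 CPM in iCre, where the groups overlapped. Its log2 change was -0.86 ± 0.33 in LacZ (adjusted p = 0.0735) and -0.77 ± 0.33 in iCre (adjusted p = 0.120), and the blocked fit called both (-0.88, adjusted p = 0.0268, and -0.81, adjusted p = 0.0433). Without the block, Igf1 in LacZ also passed without number 4 (-0.83, adjusted p = 0.0427), with total-count scaling (adjusted p = 0.0309) and with only the 2 groups compared (adjusted p = 0.00502). In iCre it passed without IL-1b number 3 (-1.16, adjusted p = 0.0243). With bFGF the log2 changes were -0.63 and -0.55 (adjusted p = 0.348 and 0.431), and neither fit called them. The order of Igf1 levels was thus TGFb, SS, bFGF and IL-1b in both vectors, and in the fit without a block the step from TGFb to SS was the 1 called. Leukocytes also express Igf1, and 13 of the 14 leukocyte markers were tested. Their sum had a median of 157 CPM (44.6 to 402) in LacZ with TGFb and 287 CPM (80.6 to 610) in LacZ SS. In iCre the medians were 165 CPM (39.4 to 569) and 231 CPM (71.8 to 780). By number, in the order 1 to 4, the median leukocyte sum was 336, 133, 658 and 72.8 CPM. The median of Igf1 over all conditions was 46.1, 39.4, 53.7 and 33.3 CPM, which is the same ranking. Among the TGFb libraries the Igf1 ranking was another. In LacZ it was highest in number 4 (208 CPM) and lowest in number 3 (111 CPM). In iCre it was highest in number 2 (202 CPM) and lowest in number 4 (121 CPM). The part of leukocytes in the Igf1 result was not tested. In these bulk libraries, a change in the cells that express a gene and a change in RNA per cell cannot be told apart.

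Igf2r (ENSMUSG00000023830, chr17:12682406-12769664, - strand), the clearance receptor, fell with TGFb and with IL-1b. In LacZ cells it stood at 768, 778, 715 and 816 CPM in SS, at 526, 316, 420 and 486 CPM with TGFb and at 465, 533, 530 and 531 CPM with IL-1b. Both stimuli put every library below every SS library, in LacZ and in iCre. The TGFb change was -0.82 ± 0.19 (log2; adjusted p = 0.00118) in LacZ and -0.72 ± 0.19 (adjusted p = 0.00455) in iCre. The IL-1b change was -0.58 ± 0.19 (adjusted p = 0.0349) in LacZ and -0.68 ± 0.19 (adjusted p = 0.0157) in iCre. The IL-1b call in LacZ was lost on leaving out any 1 of 7 libraries, all but SS number 3 (adjusted p up to 0.0981). There the log2 change stayed between -0.61 and -0.53. In iCre it was lost without IL-1b number 1 or 3 or SS number 2 (up to 0.0576). Without number 3 as a whole both were lost (adjusted p = 0.114 and 0.0881). The LacZ call was also lost with total-count scaling (adjusted p = 0.0568) and with no filter (adjusted p = 0.0518). Under the blocked fit the adjusted p for IL-1b was 0.00637 in LacZ and 0.00222 in iCre. Summed markers of other cells also differed between these groups. In LacZ the median sum of the mural markers was 586 CPM in SS (202 to 685), 304 with TGFb (244 to 489) and 174 with IL-1b (137 to 271). In iCre it was 625 (160 to 654), 291 (279 to 1167) and 167 CPM (148 to 538). With TGFb the mural genes split, so the sum does not stand for all of them. Notch3 was lower (group mean 383 to 59.2 CPM in LacZ and 347 to 64.5 in iCre). Cspg4 was higher (22.9 to 140 and 25.2 to 142), as was Mcam (31.0 to 65.6 and 26.1 to 64.2). Rgs5 was higher in iCre (105 to 229). The sum of 8 cardiomyocyte markers had a median of 73.8 CPM in LacZ SS (44.7 to 128), 18.5 with TGFb (9.56 to 36.8) and 5.86 with IL-1b (4.12 to 7.47), and of 32.9 (22.4 to 91.7), 9.05 (8.08 to 10.2) and 4.48 CPM (4.33 to 5.82) in iCre. Most of that sum was 1 gene, Tnnt2 (group means of 78.1, 19.5 and 4.48 CPM in LacZ, and 43.0, 7.52 and 2.59 CPM in iCre). The part of these markers in the Igf2r result was not tested. Airn, an antisense transcript that overlaps Igf2r, had 9606 counts over all libraries against 569768 for Igf2r, and the strand setting of the counting is not given in the sources used here.

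Igf1r (ENSMUSG00000005533, chr7:67952827-68233668, + strand), the signaling receptor, varied less. Mean levels in LacZ were 271 ± 83 CPM with bFGF, 234 ± 55 in SS, 188 ± 52 with TGFb and 167 ± 20 with IL-1b (SD, n = 4), and iCre had the same order. IL-1b was lower than SS in all 4 numbers of both vectors, by -0.49 ± 0.22 (log2) in LacZ and -0.48 ± 0.22 in iCre, called in the blocked fit (adjusted p = 0.126 and 0.139 without the block, 0.0141 and 0.0157 with it). Total-count scaling without the block also called Igf1r with IL-1b in LacZ (-0.56, adjusted p = 0.0418). For TGFb the blocked fit called LacZ (-0.33 ± 0.14, adjusted p = 0.0495) and not iCre (-0.34 ± 0.14), where the adjusted p lay just above the threshold. 

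The promoter windows of the binding proteins whose levels moved furthest are shown next, from RefSeq on GRCm38.p6. They are shown because Igfbp2 and Igfbp5, neighbours on chromosome 1, went opposite ways with TGFb. Igfbp4, like Igfbp5, was lower with TGFb. Igfbp2 (ENSMUSG00000039323, chr1:72824503-72852474, + strand) and Igfbp5 (ENSMUSG00000026185, chr1:72857932-72874884, - strand) point toward each other, with 5457 bases between their annotated ends. Igfbp4 (ENSMUSG00000017493) is at chr11:99041244-99054392, + strand. The windows are chr1:72824230-72824479 (+ strand) for Igfbp2, chr1:72874885-72875115 (- strand) for Igfbp5 and chr11:99040994-99041243 (+ strand) for Igfbp4. Each sequence runs 5′ to 3′ on the strand of the gene and stops before the annotated first exon; capitals mark matches to the motifs named after them.
Igfbp2: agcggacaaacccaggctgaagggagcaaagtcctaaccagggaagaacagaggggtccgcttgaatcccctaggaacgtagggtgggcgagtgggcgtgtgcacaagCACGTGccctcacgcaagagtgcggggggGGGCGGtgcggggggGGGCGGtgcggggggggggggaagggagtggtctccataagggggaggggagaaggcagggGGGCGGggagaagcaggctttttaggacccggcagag
Igfbp5: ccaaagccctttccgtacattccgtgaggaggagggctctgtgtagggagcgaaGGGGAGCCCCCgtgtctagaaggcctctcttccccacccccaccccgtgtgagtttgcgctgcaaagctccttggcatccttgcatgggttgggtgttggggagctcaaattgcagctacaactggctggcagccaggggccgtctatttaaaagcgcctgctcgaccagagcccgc
Igfbp4: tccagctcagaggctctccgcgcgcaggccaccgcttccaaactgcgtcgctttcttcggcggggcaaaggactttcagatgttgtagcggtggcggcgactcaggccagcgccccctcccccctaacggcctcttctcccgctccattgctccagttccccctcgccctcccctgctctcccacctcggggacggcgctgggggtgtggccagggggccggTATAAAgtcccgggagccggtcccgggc

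The windows are rich in G and C (67.2%, 60.6% and 69.2% of bases). The 250 bases before each RefSeq start were searched on both strands for 6 motifs. The letters were TGANTCA for the factor AP-1, GTCTAGAC for the palindromic site of Smad proteins, CACGTG for the E-box and GGGCGG for the GC box. The TATA box was read as TATAAA, and NF-kB sites by their usual consensus. The capitals in the Igfbp2 window are 1 E-box and 3 GC boxes, those of Igfbp5 are 2 overlapping NF-kB matches, and those of Igfbp4 a TATA box 28 bases before the start. Among 32851 mouse promoters of that length, 6.7% held the AP-1 letters, 0.2% the Smad palindrome, 6.0% the E-box, 12.4% the TATA box, 32.7% the GC box and 7.3% an NF-kB match. These matches describe the letters only. The 3 windows hold no AP-1 match and no Smad palindrome, which says only that these letters are not in these bases. A further RefSeq start of Igfbp2, not shown, has 1 AP-1 match in its window.

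Igfbp2, a binding protein for IGF-1 and IGF-2, was the lowest member in SS and rose about 10-fold with TGFb. LacZ cells had 3.78, 5.38, 7.13 and 2.44 CPM in SS and 46.7, 73.4, 12.2 and 58.3 CPM with TGFb. iCre cells had 3.56, 3.32, 5.25 and 1.23 CPM in SS and 39.4, 31.5, 21.1 and 41.7 CPM with TGFb. All 8 TGFb libraries lay above all 8 SS libraries, and number 3, the highest in SS, was the lowest with TGFb in both vectors. The rise was 3.35 ± 0.65 (log2; 10.2-fold, adjusted p = 0.000143) for LacZ and 3.33 ± 0.65 (10.0-fold; adjusted p = 0.000224) for iCre. Without number 3 the LacZ change was 3.95 on the log2 scale. Igfbp2 was at 1.12 to 6.77 CPM in LacZ with bFGF or IL-1b, and its lowest value was 0.289 CPM, in the iCre bFGF library of number 4.

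Igfbp4 and Igfbp5, the main targets of PAPP-A, were lower with TGFb in every number of both vectors, from SS levels that differed widely between numbers. Igfbp4 stood at 245, 385, 79.5 and 822 CPM in LacZ SS and at 19.8, 36.5, 20.1 and 111 CPM with TGFb. Igfbp5 stood at 60.3, 103, 19.9 and 432 CPM in LacZ SS and at 21.7, 22.9, 8.46 and 21.6 CPM with TGFb. The SS and TGFb values overlap across numbers, and the edgeR fit without a block did not call either one. Its log2 change in LacZ was -3.03 ± 1.36 for Igfbp4 (adjusted p = 0.0708) and -3.05 ± 1.37 for Igfbp5 (adjusted p = 0.0698). In LacZ, DESeq2 without a block called Igfbp4 and Igfbp5 (adjusted p = 0.0295 and 0.0281), 6 of 10 members against 4 by edgeR, as did edgeR with only the 2 groups compared (adjusted p = 0.0164 and 0.0207). The blocked fit called both: Igfbp4 by -3.11 ± 0.44 (adjusted p = 1.98e-06) in LacZ and -2.40 ± 0.42 (adjusted p = 5.17e-05) in iCre, and Igfbp5 by -2.01 ± 0.72 (adjusted p = 0.0196) and -1.77 ± 0.70 (adjusted p = 0.0384). Without number 4, in the blocked fit, Igfbp4 was -3.11 and -2.69 and Igfbp5 -1.64 and -1.54, all called. Igfbp4 was also called without the block once number 4 was left out (adjusted p = 0.000508 in LacZ and 0.00160 in iCre).

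The 2 genes parted under IL-1b. Igfbp5 was higher with IL-1b than in SS in numbers 1 to 3 of both vectors (log2 differences of 1.14, 1.05 and 0.49 in LacZ, and 1.23, 1.05 and 0.06 in iCre) and lower in number 4 (-0.51 and -2.18). Igfbp4 was lower with IL-1b in all 4 LacZ numbers, from -2.07 to -0.37, and in 3 of 4 iCre numbers. The blocked fit called Igfbp4 in LacZ (-1.42 ± 0.41, adjusted p = 0.00972; 0.677 without the block) and did not call Igfbp5 (0.75 ± 0.67, adjusted p = 0.425). Without number 4 the Igfbp5 difference in the blocked fit was 1.01 in LacZ (adjusted p = 0.0777) and 0.74 in iCre (adjusted p = 0.209). With bFGF, Igfbp4 was lower in all 4 numbers of both vectors. The blocked fit called it in LacZ (-1.37 ± 0.41, adjusted p = 0.0307) and not in iCre (adjusted p = 0.0838). Without number 4 the blocked fit called both (-1.45, adjusted p = 0.00639, and -1.39, adjusted p = 0.00559). With bFGF, Igfbp5 was lower in numbers 1 to 3, from -2.48 to -0.55 in LacZ and from -1.47 to -0.94 in iCre, and higher in number 4 (0.09 and 0.58). The blocked fit of all numbers called Igfbp5 with bFGF in neither vector (adjusted p = 0.350 and 0.720). Without number 4 it called both (-1.81, adjusted p = 0.0123, and -1.28, adjusted p = 0.0445). Igfbp5 in LacZ was at 459 CPM with bFGF in number 4, against 12.5 to 18.4 CPM in the other numbers.

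**Figure D2:**
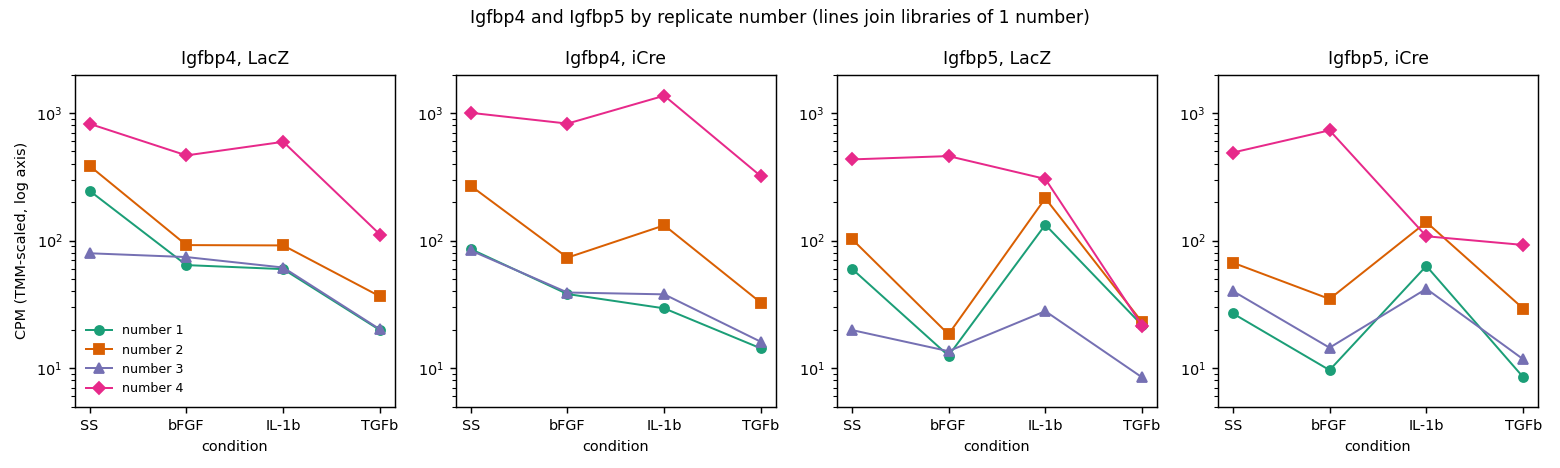
CPM (log axis) of Igfbp4 and Igfbp5 by condition, with a line for each replicate number and a panel for each gene and vector. Number 4 lies highest for Igfbp4 in every condition, TGFb lies below SS in every line, and the Igfbp5 lines of numbers 1 to 3 rise to IL-1b where that of number 4 goes down.

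Igfbp3, which carries most circulating IGF in complex with the acid-labile subunit (ENSMUSG00000020427, chr11:7206086-7213923, - strand), had its highest group mean in SS in both vectors. LacZ cells had 88.7, 99.7, 40.7 and 27.5 CPM in SS, 24.8, 28.8, 25.4 and 14.8 CPM with TGFb and 27.8, 22.2, 27.7 and 6.79 CPM with bFGF. All 4 numbers were lower with each stimulus in LacZ, and number 4 was the lowest library of every LacZ group. In iCre, numbers 1 to 3 were lower with each stimulus. Number 4 of iCre was at 8.86 CPM in SS and higher with TGFb (16.4) and IL-1b (21.4). Igfbp3 fell with TGFb in LacZ by -1.45 ± 0.56 on the log2 scale (adjusted p = 0.0366), a call that was lost on leaving out any 1 of 6 of its 8 libraries, all but SS numbers 3 and 4 (adjusted p up to 0.112). With TGFb in iCre (-0.96 ± 0.56, adjusted p = 0.176) and with bFGF in LacZ (-1.60 ± 0.57, adjusted p = 0.131) and iCre (-1.14 ± 0.56, adjusted p = 0.307) it was called in the blocked fit (adjusted p = 0.0386, 0.00135 and 0.0209). Without number 4 and without the block, Igfbp3 was called in the same 3 comparisons, at -1.13 (adjusted p = 0.00434), -1.55 (adjusted p = 0.00447) and -1.18 (adjusted p = 0.0129), and for TGFb in iCre also without SS number 4 alone (adjusted p = 0.0486). With IL-1b the blocked fit called LacZ (-0.89 ± 0.29, adjusted p = 0.0230) and not iCre (-0.22 ± 0.29, adjusted p = 0.622), and without number 4 Igfbp3 in LacZ was also called without the block (-0.88, adjusted p = 0.0315).

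Igfbp6 (ENSMUSG00000023046, chr15:102144362-102149511, + strand) and Igfbp7 (ENSMUSG00000036256, chr5:77349240-77408041, - strand) moved little with the stimuli. Igfbp6 was at 75.4 ± 31.6 CPM in LacZ SS and 52.6 ± 27.4 CPM with TGFb (SD, n = 4), and neither fit called it against SS under any stimulus. Without number 4, the blocked fit called it for TGFb, by -0.60 in LacZ (adjusted p = 0.00105) and -0.79 in iCre (adjusted p = 7.41e-05), and the fit without a block called it in iCre (-0.75, adjusted p = 0.0212). Igfbp7 was higher with each stimulus in 4 of 4 numbers of both vectors, by 0.06 to 0.59 on the log2 scale, and the blocked fit called IL-1b in iCre (0.44 ± 0.16, adjusted p = 0.0402). Without number 4, Igfbp7 was also called higher in LacZ with IL-1b (0.28, adjusted p = 0.0458; blocked 0.0247) and with TGFb (0.25, adjusted p = 0.0448; blocked 0.0251). Polr2b on the other strand overlaps the end of Igfbp7 and had 54291 counts over all libraries against 1086514 for Igfbp7.

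As transcripts per kb, Igfbp7 made up 77.4% to 91.7% of the summed level of the 6 binding protein genes when averaged within each of the 8 groups. In the lowest library of each group Igfbp7 held 62.4% to 82.0% in LacZ and 40.5% to 52.3% in iCre. Among the other 5 genes, the make-up shifted with TGFb. Igfbp2 went from 1.76% ± 1.42 in LacZ SS to 27.2% ± 14.1 with TGFb (SD, n = 4), and Igfbp4 from 37.9% ± 14.8 to 9.83% ± 4.89. In iCre the Igfbp2 share went from 1.47% ± 1.07 to 20.6% ± 10.1 and the Igfbp4 share from 32.1% ± 16.7 to 11.6% ± 8.96. Igfbp6 held 37.9% to 54.2% of these 5 in every group mean.

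Pappa (ENSMUSG00000028370, chr4:65124174-65357509, + strand) was the 1 member that the fit without a block called with bFGF in LacZ. It stood at 107, 155, 76.9 and 145 CPM in LacZ SS and at 44.7, 68.6, 52.6 and 50.5 CPM with bFGF. The groups did not overlap and all 4 numbers were lower. Its log2 change was -1.16 ± 0.32 (0.447-fold, adjusted p = 0.0461), the 1 call among 10 members, where 2.56% of all tested genes were called. The blocked fit called 3 members, Pappa, Igfbp3 and Igfbp4, all lower, against 12.2% of all genes. The call was lost on leaving out any 1 of 7 libraries, all but SS number 3 (adjusted p up to 0.199), while the change stayed between -1.33 and -1.02. In iCre the change was -0.94 ± 0.32 (adjusted p = 0.113; blocked -0.97 ± 0.28, adjusted p = 0.0285), and edgeR called 0 members in iCre, where 2.2% of all genes were called and 1 member had an unadjusted p under 0.05; DESeq2 called 0 too, and the blocked fit called 2 of 10 against 11.4%.

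Pappa was also lower with IL-1b (log2 -0.69 ± 0.31 in LacZ and -0.79 ± 0.31 in iCre), where the blocked fit called iCre (adjusted p = 0.0250) and not LacZ (adjusted p = 0.0650). Without number 4, Pappa was called lower with IL-1b in both vectors, at -0.87 in LacZ (adjusted p = 0.0271; blocked -0.84, adjusted p = 0.00430) and -1.21 in iCre (adjusted p = 0.00384; blocked -1.24, adjusted p = 0.000186). With TGFb it was near SS (-0.15 ± 0.31 and 0.19 ± 0.31). IL-1b called 1 of 10 members in each vector, Igf2r, against 19.2% of all genes in LacZ and 15.7% in iCre. The blocked fit called 5 of 10 in each, against 32.3% and 29%: Igf1, Igf1r, Igf2r, Igfbp3 and Igfbp4 fell in LacZ, and in iCre Igf1, Igf1r, Igf2r and Pappa fell and Igfbp7 rose (14.1% of all genes were called lower and 15% higher). Total-count scaling turned the split of genes called for IL-1b in LacZ from 1853 higher and 1363 lower to 1375 and 1625.

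Set against each other, the stimuli differed most at Igf1 and Igfbp2. TGFb was above IL-1b in 2 of 10 members in LacZ (39.1% of all genes called) and 3 in iCre (31.2%), and differed from bFGF in 4 members in each vector (40.8% and 30.5%). Igf1 was higher with TGFb than with IL-1b by 5.40-fold in LacZ and 5.26-fold in iCre, and Igfbp2 by 13.2-fold and 15.2-fold. Pappa was higher with TGFb than with bFGF in every number, with a ratio of 2.02 for LacZ (adjusted p = 0.0121) and of 2.19 for iCre (adjusted p = 0.00783). The LacZ call for Pappa was lost without number 4 (log2 0.69, adjusted p = 0.0566) and without TGFb number 4 alone (adjusted p = 0.0816), and the iCre call without TGFb number 2 (0.83, adjusted p = 0.0577). Pappa was also the third member above IL-1b with TGFb in iCre (0.98, adjusted p = 0.0191), a call lost without IL-1b number 1, 2 or 3 or TGFb number 2 (adjusted p up to 0.123), without number 3 as a whole (adjusted p = 0.0861) and with total-count scaling (adjusted p = 0.0766). Igf2r, the member below bFGF with TGFb, lost that call in iCre without bFGF number 4 (-0.44, adjusted p = 0.0521). IL-1b and bFGF differed in 2 members in LacZ (14.8% of all genes) and 1 in iCre (11.4%): Igf2r was lower with IL-1b in both (0.592-fold, adjusted p = 0.00773, and 0.611-fold, adjusted p = 0.0152), and Igf1r in LacZ (0.618-fold, adjusted p = 0.0305). The Igf2r call in iCre was lost without bFGF number 4 (adjusted p = 0.113), without IL-1b number 1 or 3 (adjusted p = 0.0587 and 0.0529), and without number 3 or number 4 as a whole (adjusted p = 0.0826 and 0.0642). The Igf1r call in LacZ was lost on leaving out any 1 of 5 of the 8 libraries, bFGF number 1 or 3 or IL-1b number 1, 2 or 4 (adjusted p up to 0.141), and without number 3 as a whole, where the log2 difference was -0.62. The blocked fit added Igfbp4 and Igfbp5, lower with TGFb than with IL-1b in both vectors, Igfbp4 and Igf1r, lower with TGFb than with bFGF in both, and in iCre Igf1r (lower) and Igfbp3 (higher) with IL-1b against bFGF.

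**Figure D3:**
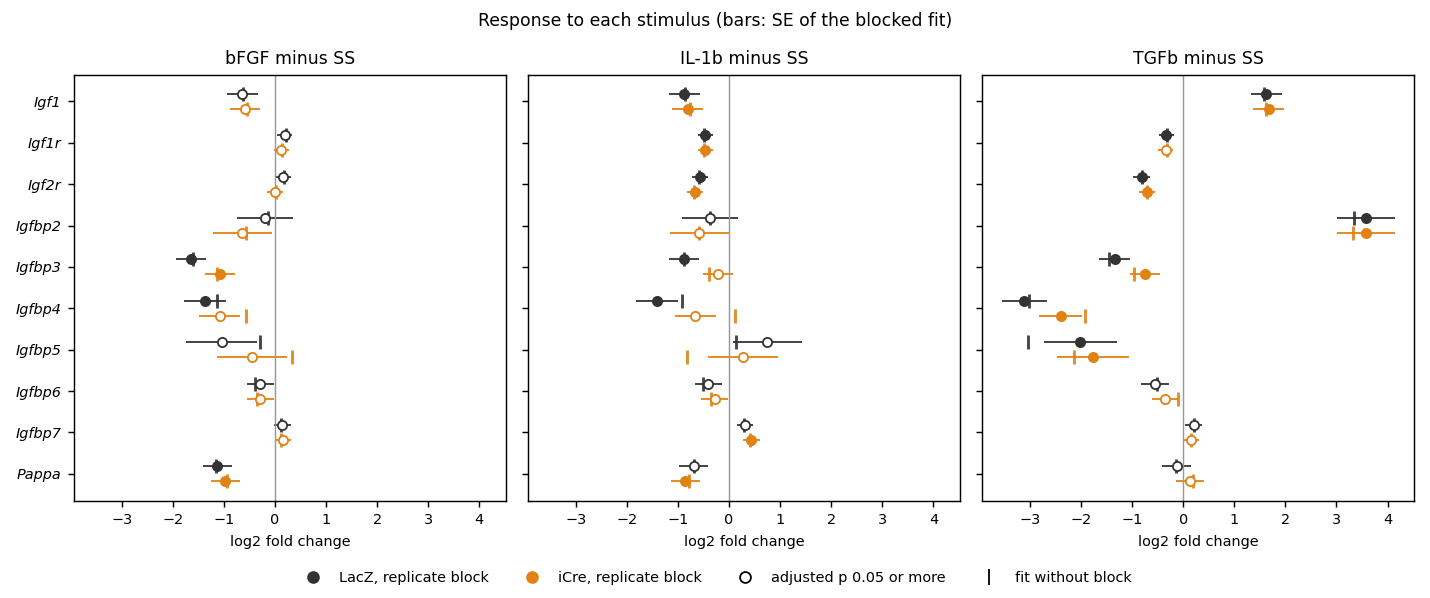
Log2 change against SS for each stimulus (panels) and member (rows), with points and SE bars from the blocked fit and vertical ticks from the fit without a block; black is LacZ, orange iCre, and open points did not pass an adjusted p of 0.05. Igf1 and Igfbp2 lie to the right only with TGFb, and the gap between point and tick is widest for Igfbp4 and Igfbp5.

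Whether the responses differed between vectors was tested as an interaction. The difference between iCre and LacZ in the TGFb response was 0.05 ± 0.47 (log2) for Igf1 and -0.02 ± 0.87 for Igfbp2, and no member was called for any of the 3 stimuli (0 of 10 by edgeR, also with the block, 0 at an unadjusted p under 0.05 and 0 by DESeq2, where 0% of all genes were called). The standard errors reached 1.80 (log2) for Igfbp5 without the block, so differences of that size were not detectable here.

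Between iCre and LacZ cells, without a block, edgeR called 0 of 10 members in SS, bFGF, IL-1b or TGFb (0 at an unadjusted p under 0.05, 0 by DESeq2; 0% of all genes) and 0 of 10 in the average of the 4 conditions (1 at an unadjusted p under 0.05, 0 by DESeq2; 0.107% of all genes). Igfbp7 was called in the average by the blocked fit, 1 of 10 against 2.83% of all genes. Igfbp7 was lower with iCre in 15 of 16 pairs of 1 condition and number. In SS it stood at 1391, 1429, 1503 and 754 CPM in LacZ and at 1409, 1197, 1166 and 373 CPM in iCre, so number 1 was level and number 4 differed most. The log2 difference by number, averaged over conditions, was -0.05, -0.25, -0.25 and -0.96. The blocked estimate was -0.38 ± 0.08 (0.771-fold, adjusted p = 0.00912), against -0.28 ± 0.21 (adjusted p = 0.853) without the block, and -0.19 ± 0.05 (adjusted p = 0.0302) in the blocked fit without number 4. These fits take the 4 conditions of a number as independent. Over the 4 numbers alone a two-sided exact sign-flip test gave the smallest p that 4 numbers allow, which is above 0.05, and with counts summed over conditions the adjusted p was 0.486.

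Igfbp2 was also lower with iCre in 15 of 16 pairs, the exception being TGFb in number 3 (12.2 CPM in LacZ and 21.1 CPM in iCre). Its log2 difference by number was -0.30, -1.22, -0.22 and -1.03, and the blocked average of -0.69 ± 0.28 was not called (adjusted p = 0.212). With a term per pair, which treats the 16 pairs as independent, the model gave -0.66 ± 0.15 with an adjusted p of 0.0164. With counts summed over conditions the Igfbp2 difference was -0.47 (adjusted p = 0.583), and the exact sign-flip test over the 4 numbers gave the smallest p they allow. Pappa was higher with iCre in 11 of 16 pairs, with means by number of 0.50, 0.42, 0.34 and -0.34. It was called in the average only in the blocked fit without number 4 (0.40 ± 0.10, adjusted p = 0.0436). Igf1 (-0.12 ± 0.17), Igf1r (-0.09 ± 0.11) and Igf2r (-0.00 ± 0.10) showed no called difference in any of these fits.

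**Figure D4:**
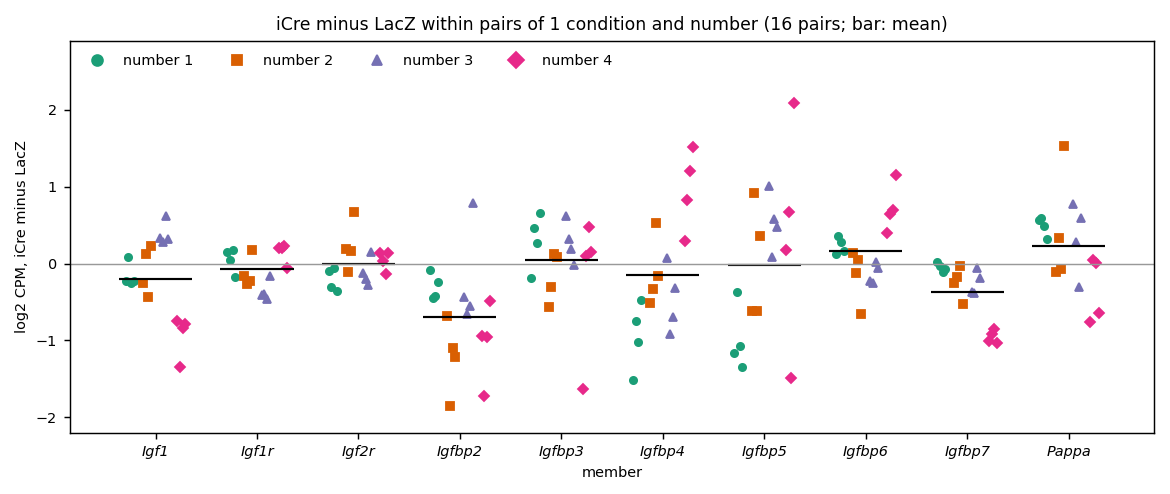
Log2 difference in CPM between the iCre and the LacZ library of 1 condition and replicate number, for each member, with 16 pairs coloured by number and a bar at their mean. For Igfbp7 and Igfbp2, 15 of 16 points lie below 0, and the Igfbp7 points of number 4 lie lowest.

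The level of most binding proteins went with the replicate number. Part of each share given here arises without any effect of the number, and no baseline share is given. Of the spread within groups, the number accounted for 90.2% in Igfbp4, 89.4% in Igfbp7, 77.9% in Igfbp3, 73.4% in Igfbp6 and 71.0% in Igfbp5, and for 61.2% in Igf1r, 36.2% in Igf2r, 34.9% in Igfbp2, 30.7% in Igf1 and 24.2% in Pappa. Relative to the mean of its group, number 4 was higher by 2.42 (log2) in Igfbp4, 2.11 in Igfbp5 and 0.83 in Igfbp6, in 8 of 8 libraries each. It was lower by -1.17 in Igfbp3 and -0.95 in Igfbp7, again in 8 of 8. Igfbp4 in number 4 ran from 111 to 1365 CPM, against 14.3 to 245 in number 1, 32.5 to 385 in number 2 and 16.1 to 83.7 in number 3. Within groups, over 32 libraries, deviations of Igfbp4 went with those of Igfbp5 (r = 0.81) and against those of Igfbp7 (r = -0.91), and Igfbp3 went with Igfbp7 (r = 0.85); these libraries share their numbers. Number 4 also had the lowest median fibroblast and leukocyte marker sums. In LacZ with TGFb, though, its fibroblast sum was the highest of the group, at 57140 CPM. In that library Igfbp4 was still the highest of its group (111 CPM) and Igfbp7 the lowest (823 CPM). The part of these markers in the result was not tested.

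**Figure D5:**
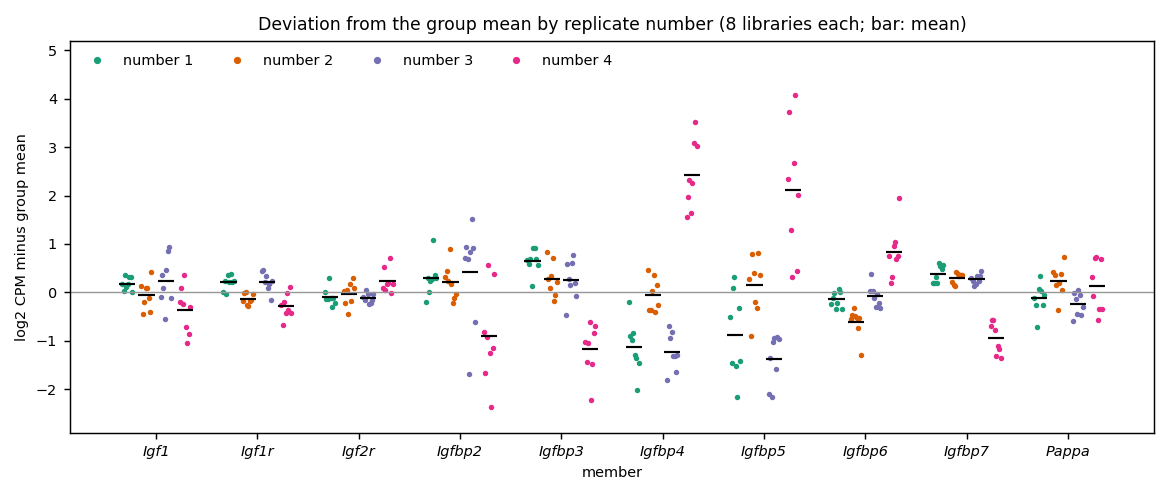
Log2 CPM minus the group mean for each member, with 8 libraries for each replicate number and a bar at their mean. Number 4 stands 2.42 above 0 for Igfbp4 and 0.95 below it for Igfbp7, while the numbers of Igf1, Igf2r and Pappa overlap.

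Across the 8 group means, Igf1 and Igfbp2 had similar patterns (r = 0.97), as had Igf1r and Igf2r (0.92). So had Igfbp4 and Igfbp6 (0.83) and Igfbp4 and Igfbp5 (0.82). With 8 points whose libraries share the same replicate numbers, these are descriptions. Among 11370 genes, the pattern most like that of Igf1 was that of Cthrc1 (r = 0.998), followed by Pdgfrl (0.997) and Acta2 (0.996), the smooth muscle actin of myofibroblasts. For Igfbp2 they were Ssh1 (0.996), Papss2 (0.991) and Sardh (0.990). For Igfbp4 they were Pdcd4 (0.999), Enpp5 and Ctsf (0.998 each), for Igfbp5 Per1, Chp1 and Tut4 (0.996, 0.995 and 0.990), and for Igf2r Map3k3, Apc2 and Dkk3 (0.994 each). Igf1r was most like Brinp1 (0.995), Igfbp3 like Tcea2 (0.986), Igfbp6 like 2810021J22Rik (0.995), Igfbp7 like Creld1 (0.957) and Pappa like Fam107b (0.981).

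The rest of the pathway was read from 3 further lists. Of 12 other IGF ligands, binding proteins and proteases, 9 were tested. Igf2, the other ligand, was scarce, with a median of 0.244 CPM and a range of 0 to 25.2, and Igfbp1 had no read in any library. Htra3 and Htra4, serine proteases of a family that can cut binding proteins, fell with TGFb in LacZ (-2.24 ± 0.63, adjusted p = 0.00477, and -1.37 ± 0.30, adjusted p = 0.000606) and in iCre (-1.75 ± 0.61 and -1.42 ± 0.30, adjusted p = 0.0261 and 0.000584); they were the 2 of 9 called in each, against 46.3% of all genes in LacZ (22.9% lower) and 38.3% in iCre (18.1% lower). Stc2, an inhibitor of PAPP-A, rose with IL-1b in LacZ (1.58-fold, adjusted p = 0.0274), the 1 of 9 called, against 19.2% of all genes. The median log2 change of the 9 with TGFb was -0.72 in LacZ and -0.54 in iCre, against -0.06 and -0.05 over all genes. With the block, 5 of 9 fell with TGFb in each vector, where 30.3% of all genes fell in LacZ and 26.5% in iCre, which added Igf2, Htra1 and Stc1, another PAPP-A inhibitor (-3.05 ± 0.66 in LacZ).

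Of 29 genes of insulin and IGF receptor signaling, 28 were tested. With TGFb in LacZ 1 rose and 8 fell, 9 of 28 against 46.3% of all genes (22.9% lower). Pik3cb, a catalytic PI3K subunit, rose 5.36-fold (2.42 ± 0.28, adjusted p = 1.12e-07), while Pik3r1, the regulatory subunit, fell by -1.44 ± 0.28, Foxo1 by -1.01 ± 0.17, Foxo4 by -0.74 ± 0.12 and Tsc1 by -0.74 ± 0.20. In iCre 2 rose and 6 fell, 8 of 28 against 38.3% (18.1% lower), with Pik3cb up 4.04-fold and Pik3r1 lower by -0.93 ± 0.28; Insrr, the other that rose, did not exceed 2.53 CPM in any library. The blocked fit called 14 in LacZ (2 rose, 12 fell) and 11 in iCre (2 rose, 9 fell), against 58.4% and 51.6% of all genes. With IL-1b, 1 rose and 2 fell in LacZ, and 1 rose and 3 fell in iCre, against 19.2% and 15.7% of all genes called. IL-1b lowered Irs1, the adaptor beneath the receptor, by -0.98 ± 0.23 in LacZ (adjusted p = 0.00308) and -1.16 ± 0.23 in iCre (adjusted p = 0.000857), and Foxo1 by -0.96 ± 0.17 and -0.87 ± 0.17. Foxo1 was the 1 of 28 called with bFGF in each vector (-0.66 ± 0.17 and -0.70 ± 0.17), where 2.56% and 2.2% of all genes were called. The median log2 change of this list with TGFb in LacZ was -0.19, against -0.06 over all genes.

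Of the 8 genes for growth hormone input and Igf mRNA binding, TGFb lowered the growth hormone receptor Ghr by -0.95 ± 0.38 (adjusted p = 0.0412) and Stat5a, a transcription factor downstream of it, by -0.95 ± 0.20 (adjusted p = 0.000306) in LacZ, and raised Igf2bp1 1.93-fold (adjusted p = 0.00386), 3 of 8 called, where 46.3% of all genes were. In iCre Stat5a fell by -0.73 ± 0.20 and Igf2bp1 rose 1.59-fold, and Ghr was called with the block (-0.93 ± 0.18, adjusted p = 0.000173). With the block, 6 of 8 were called with TGFb in each vector, against 58.4% of all genes in LacZ and 51.6% in iCre. IL-1b raised Socs3, a feedback inhibitor of cytokine signaling, 3.0-fold for LacZ cells and 3.27-fold for iCre cells (adjusted p = 0.0154 and 0.0114), and Stat5a 1.59-fold and 1.64-fold. Without the block, 0 genes of these 3 lists were called by edgeR for iCre against LacZ in the average of conditions. The blocked fit called 2 of 9, 0 of 28 and 3 of 8, against 2.83% of all genes. Among them were Igf2bp1 (0.53 ± 0.10, adjusted p = 0.00497) and Igf2 (2.57 ± 0.50, adjusted p = 0.00519). Igf2 stood at group means of 0.307 to 6.73 CPM in iCre and 0.0232 to 1.79 CPM in LacZ. Its median over all libraries was 0.244 CPM, and the group mean of 6.73 CPM, in iCre with bFGF, holds the 1 library at 25.2 CPM. The blocked average takes the 4 conditions of a number as independent.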

How the data were processed

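Poly(A) RNA was measured in 32 libraries. The values are raw counts per gene as the authors deposited them. The submitters' processing notes name FastQC 0.10.1, HTSeq 0.10.0 and mm10/GRCm38; for the aligner, the strand setting and the counting annotation, nothing is given in the sources used here. Of 55414 gene IDs, 52081 (99.75% of counts) matched GENCODE M21, and 0 columns were without a sample.

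Tests used edgeR 4.0.16 (R 4.3.3): TMM factors, the default filter by group, robust quasi-likelihood fits of all libraries in 1 model with 1 mean per group, two-sided, Benjamini-Hochberg over 16760 genes, threshold 0.05. Exon unions of GENCODE gave lengths. The test was run on simulated data first. Log2 CPM used a prior count of 2.

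Numbers pair the libraries: deviations of same-numbered libraries from the group mean correlated at 0.153 to 0.857 in 64 pairs, all above 0.1. Only the titles give these numbers. Alternatives were the replicate block, a block per pair, summed counts, DESeq2 1.42.0, total-count scaling, no filter, only the 2 groups compared, and leaving out number 3, number 4 or each library. All 10 members are named; up to 5 genes per other list and contrast are named by size of change among those called, and for likeness the 3 protein-coding genes with the highest Pearson r. The members and lists were chosen with earlier results of these data known. Figures used matplotlib 3.10.9.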

Additional observations from a re-analysis of the deposited data

Results flagged for a closer look

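In each group of 4 libraries, a library far from the other 3 was looked for by Dixon's ratio at its 95% critical value. Of 80 groups (10 members in 8 groups), 17 held one, where chance flags about 1 in 20, or about 4, and 15 of the 17 were number 4. The values are CPM.

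Igfbp4 in number 4 stood above the rest in 5 groups: at 464.72 in LacZ with bFGF (the others at most 92.1), 593.96 in LacZ with IL-1b, 825.02 in iCre with bFGF, 1365.1 in iCre with IL-1b and 318.46 in iCre with TGFb (the others at most 32.5). Igfbp5 in number 4 was high in LacZ with bFGF at 458.99, in iCre SS at 488.98 and in iCre with bFGF at 730.94, and Igfbp5 in number 3 was low in LacZ with TGFb at 8.461. Igfbp6 in number 4 was high in iCre SS at 158.0 and in iCre with TGFb at 207.69. Igfbp7 in number 4 was low in LacZ SS at 754.01, in LacZ with bFGF at 910.32 and in iCre with IL-1b at 562.66. Igf2r in number 4 was high with bFGF, at 1221.1 in LacZ and 1255.0 in iCre, where the other 6 bFGF libraries ran from 623 to 768, and Igf2r in number 1 was low in LacZ with IL-1b at 465.16.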

How the results depend on the processing

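The replicate block moved the number of members called against SS from 1 to 3 (bFGF, LacZ), 1 to 5 (IL-1b, LacZ), 4 to 7 (TGFb, LacZ), 0 to 2 (bFGF, iCre), 1 to 5 (IL-1b, iCre) and 3 to 6 (TGFb, iCre), and for iCre against LacZ on average from 0 to 1; a block per pair gave 2 there. Between stimuli it only added calls, given in the text, and it changed no other call of a member. In the same order, leaving out number 4 gave 2, 6, 6, 2, 3 and 6, and with the block 4, 7, 8, 4, 5 and 7, with 2 for the average. Without number 3, bFGF in LacZ and IL-1b in both vectors gave 0. For bFGF in LacZ, total-count scaling, no filter and only the 2 groups compared gave 0 each; for IL-1b in LacZ they gave 2, 0 and 2. Leaving out 1 library gave 0 to 1 for bFGF and for IL-1b in LacZ, 0 to 2 for IL-1b in iCre and 3 to 5 for TGFb in iCre, where the 5 came without TGFb number 4.

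In the blocked fit without number 4, 5 differences in iCre changed sign and were called: Igfbp5 with bFGF (-1.28), Igfbp4 with IL-1b (-1.17), Igfbp6 with TGFb against IL-1b (-0.63) and against bFGF (-0.63), and Igfbp5 with IL-1b against bFGF (2.02). The cause was not tested. Of 2080 member values with 1 library left out, 2030 kept their call and 0 reversed; of 1560 under the other alternatives, 1430 did. Among these 3640, 332 uncalled values changed sign. Counts were at least 11 reads, so depth limits mainly Igfbp2.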
